A study of Mus musculus with 8 samples.

Results

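Tissue factor and plasminogen activation genes are described here over 4 groups of sorted mouse intestinal organoid cells. The members are *F3*, *Tfpi*, *Plau*, *Plaur* and *Plat*, 5 of the 13420 genes in the read count table, and all 5 have a row there. *F3* was chosen on its measured level, because it was higher in both libraries of mixed WT cells than in every library of cancer cells, and the other 4 members were added beside it by function. Of the 5 members, *F3*, *Plaur* and *Plat* passed the filter on low counts, which kept 5264 genes for testing, while *Plau* and *Tfpi* did not.

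Blood clotting and fibrin removal each start from a small number of proteins at the cell surface. Tissue factor, encoded by *F3*, is the membrane receptor that binds coagulation factor VII and starts the extrinsic clotting cascade, and the secreted inhibitor encoded by *Tfpi* shuts that complex down. Plasminogen is turned into plasmin, the protease that dissolves fibrin and cuts matrix proteins, by urokinase (*Plau*) and by tissue plasminogen activator (*Plat*), and the urokinase receptor encoded by *Plaur* holds urokinase at the cell surface. In epithelia the genes for tissue factor and the urokinase receptor are known as targets of AP-1 factors, and plasminogen activation at the cell surface is known from healing wounds and from invading tumors.

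WT cells came from small intestine organoids of C57BL/6 mice carrying mTmG, a transgene that gives a membrane-bound red tdTomato signal. Cancer cells came from small intestine organoids of C57BL/6 (F6) mice with Villin-CreERT2, Apc fl/fl and Tr53 fl/R172H and carried green Dendra2. Villin restricts Cre to the gut epithelium, organoids are grown from epithelium alone, and counts of gene ends do not tell the engineered alleles apart. Clumps of WT and cancer cells were joined at 2 parts WT to 1 part cancer or were kept as pure cultures, and live cells were sorted by color on day 3. All cultures shared a medium with EGF, Noggin and R-spondin. This gave 4 groups, WT cells from pure or mixed cultures and cancer cells from pure or mixed cultures, with 2 libraries each that are named by their well.

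Depth differed widely. Library A02 of mixed WT cells had 73109 reads and library A04 of mixed cancer cells had 4733121. In A02, 26.1% of the tested genes had 0 reads, against 0.646% in A04. Levels are given as CPM, the counts-per-million value over the reads of tested genes after TMM scaling, and their 95% intervals cover counting error only. All 8 epithelial markers were read in each group, with summed levels of 4755 to 16160 CPM per library. Of the markers for other cells the table held 2 of 8 for fibroblasts and muscle, 1 of 5 for endothelium, 1 of 7 for leukocytes and 3 of 4 for platelets, and these had 0 reads in the 4 WT libraries. In the cancer libraries the platelet list summed to at most 36.4 CPM and the other 3 lists to at most 5.25 CPM. Their part in the results below was not tested.

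*F3* lies at chr3:121723537-121735048 on the plus strand of GRCm38, with 6 exons in its principal transcript, and *Plaur* at chr7:24462484-24475968 on the plus strand, with 7 exons. *Plat* lies at chr8:22757727-22782844 with 14 exons and *Plau* at chr14:20836660-20843385 with 11 exons, both on the plus strand. *Tfpi*, with 10 exons, lies at chr2:84432855-84476775 on the minus strand. No window of 50 bases in the last 500 bases of these genes was shared with another gene. Promoter sequence from RefSeq on GRCm38.p6 was matched for 3 of the 5 members, *F3*, *Plaur* and *Tfpi*. The 250 bases before the start of *F3* (chr3:121723287-121723536, plus strand) and of *Plaur* (chr7:24462233-24462482, plus strand) are shown because these 2 members had the higher levels in mixed WT cells, with matches to the AP-1 motif in capitals.
F3: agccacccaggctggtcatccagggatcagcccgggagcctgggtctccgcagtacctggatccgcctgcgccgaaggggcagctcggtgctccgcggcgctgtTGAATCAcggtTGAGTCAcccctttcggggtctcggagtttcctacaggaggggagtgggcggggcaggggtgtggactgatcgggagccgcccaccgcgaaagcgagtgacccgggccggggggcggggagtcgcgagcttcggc
Plaur: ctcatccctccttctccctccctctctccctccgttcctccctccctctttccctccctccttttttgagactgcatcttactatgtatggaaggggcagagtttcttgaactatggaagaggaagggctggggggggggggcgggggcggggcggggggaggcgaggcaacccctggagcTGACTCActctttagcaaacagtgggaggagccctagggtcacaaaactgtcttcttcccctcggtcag

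The AP-1 motif was searched as TGANTCA on both strands in the 250 bases before and the 50 bases after each start. *F3* held 2 matches, TGAATCA at positions -146 to -140 and TGAGTCA at positions -135 to -129, counted back from the start, and *Plaur* held 1, TGACTCA at positions -69 to -63. The windows of *Tfpi* held no AP-1 match. Of 32851 promoter windows of the same length, 7.81% held at least 1 match and 0.46% held at least 2, and of the 5163 windows of tested genes the shares were 5.64% and 0.31%. The Sp1 motif GGGCGG, also searched on both strands, matched 3 times in each of the windows of *F3* and *Plaur*, overlapped no AP-1 match and was held by 35.7% of all windows and 65.7% of those of tested genes. The 3 Sp1 matches of *Plaur* ran into each other between positions -111 and -95. These matches describe letters and do not show that a factor was bound.

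**Figure D1:**
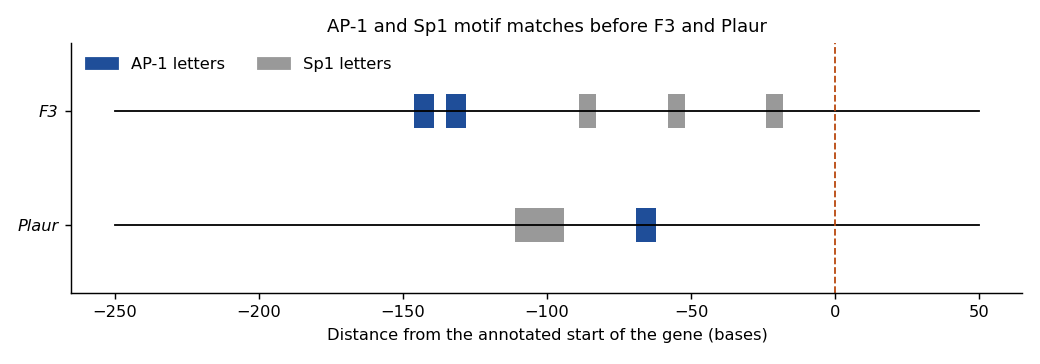
AP-1 (blue) and Sp1 (grey) motif matches in the window from 250 bases before to 50 bases after the annotated start (dashed line) of *F3* and *Plaur*, with distance from the start in bases on the x axis. *F3* holds 2 AP-1 matches and *Plaur* holds 1.

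*F3* was low in pure WT cells and high in WT cells that had been mixed with cancer cells. The receptor that starts clotting was read at 5.49 CPM in A01 and 2.25 CPM in A05, the pure WT libraries, from 6 and 4 reads. In mixed WT cells it reached 65.5 CPM in A02 and 122 CPM in A06, from 5 and 54 reads. Both mixed WT libraries stood above both pure WT libraries, as in 15.0% of all tested genes. The counting intervals of A02 (21.3 to 153 CPM) and of A01 (2.02 to 11.96 CPM) did not meet, but they leave out the spread between libraries. The means were 93.9 ± 40.2 CPM in mixed WT cells and 3.87 ± 2.30 CPM in pure WT cells (SD, n = 2 each). Pooled over libraries, mixed WT cells had 32.7 times the level of pure WT cells (counting interval 16.6 to 71.8), and the fitted log2 fold change was 4.71. These values chose the gene and are a description without a test. In bulk RNA of sorted cells, fewer cells of a type and less RNA per cell cannot be told apart.

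The same libraries give the values of *F3* in other forms, which are again a description and add no support to its choice. Without A02 the fitted log2 fold change of mixed over pure WT cells was 4.98, and without A06 it was 4.02. Molecule barcodes, which mark separate RNA molecules before amplification, numbered 4 for *F3* in A02 and 37 in A06, against 6 in A01 and 3 in A05. On the same scale made from barcode counts (over all genes and without TMM scaling), the mean was 182 ± 81.0 in mixed WT cells and 14.7 ± 9.31 in pure WT cells (SD, n = 2 each). Fewer than 10 molecules stood behind 3 of the 4 values.

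In cancer cells *F3* took an intermediate level, with A03 below the other 3 libraries. It was read at 5.25 CPM in A03 and 20.95 CPM in A07, the pure cancer libraries, from 1 and 7 reads. Mixed cancer cells had 20.4 CPM in A04 and 20.75 CPM in A08, from 104 and 4 reads. The highest cancer library was thus A07, and the lower of the mixed WT libraries, A02, lay above it at 65.5 CPM. With 5 reads, the counting interval of A02 (21.3 to 153 CPM) met that of every cancer library, such as A07 (8.43 to 43.2 CPM). The interval of A06 (91.9 to 160 CPM) lay above them all. By mean level the order was mixed WT, mixed cancer (20.6 ± 0.280), pure cancer (13.1 ± 11.1) and pure WT (SD, n = 2 each), and the ranges of mixed and pure cancer overlapped, as did those of pure cancer and pure WT. The fitted log2 difference between mixed cancer and mixed WT was -2.27, again a description.

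On mixing in cancer cells the log2 fold change of *F3* was 0.51 ± 0.94 (SE), which did not pass the test (edgeR, adjusted p = 1.0). The value was -0.02 without A03 and 2.02 without A07. *F3* was read at a higher mean in pure cancer than in pure WT cells, with a log2 fold change of 1.93 ± 1.017 (SE) that did not pass the test either (edgeR, adjusted p = 0.30). Without A07 that value was 0.41. The pure WT libraries and the cancer libraries also served the choice of the gene, so neither comparison is independent of that choice. *F3* reached the count minimum in the mixed WT libraries alone, so its passing the filter already took a high level there. Pooled over libraries, pure cancer cells had 4.38 times the level of pure WT cells (counting interval 1.502 to 12.3).

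**Figure D2:**
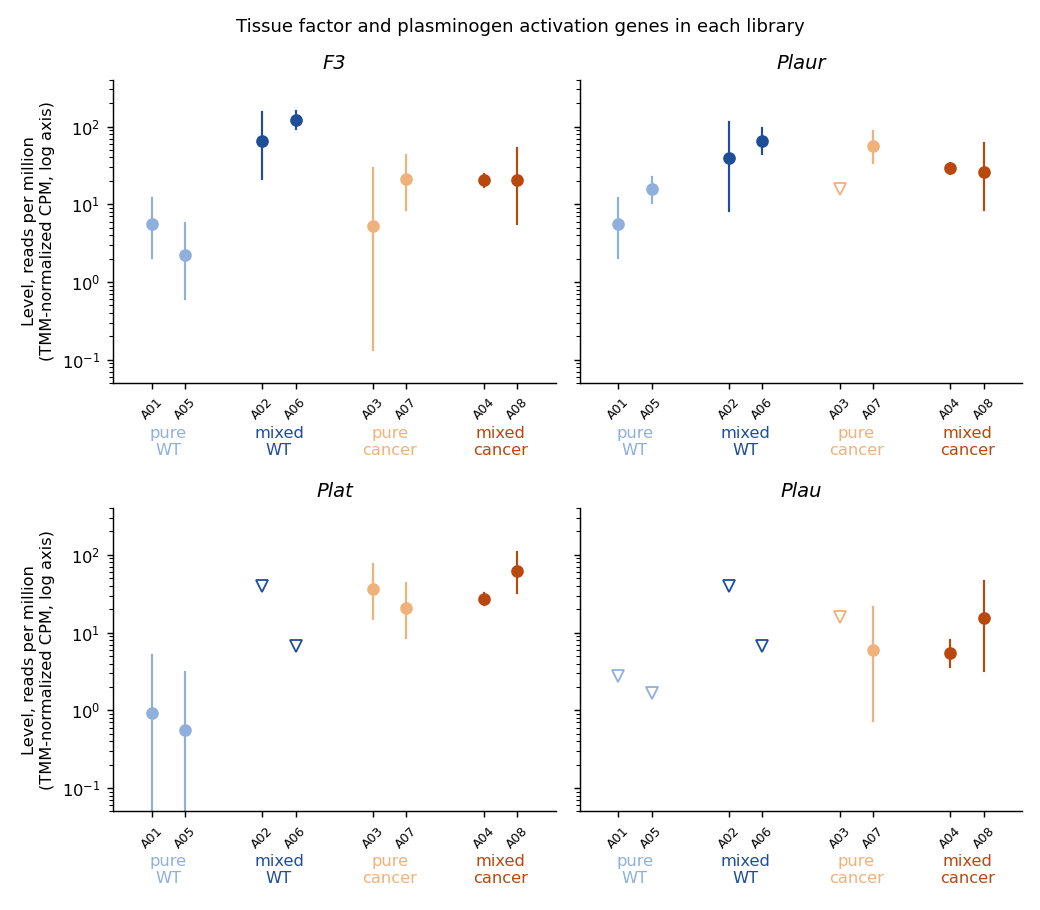
Level of *F3*, *Plaur*, *Plat* and *Plau* in each of the 8 libraries, in TMM-normalized CPM on a log axis, with wells on the x axis under the group names. Points show the level with its 95% counting interval (lower ends under the axis are not drawn) and open triangles mark a library with 0 reads, placed at the level that 3 reads would give. *F3* stands highest in A02 and A06 and *Plat* is at 20.95 CPM or more in the 4 cancer libraries.

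*Plaur*, the receptor that holds urokinase at the cell surface, was also read at a higher level in mixed than in pure WT cells, but it did not pass the test. It stood at 5.49 CPM in A01 and 15.7 CPM in A05, and at 39.3 CPM in A02 and 65.7 CPM in A06, from 6, 28, 3 and 29 reads. The mixed WT libraries did not overlap the pure WT libraries, which 15.0% of all tested genes also showed in this direction. The means were 52.5 ± 18.7 and 10.6 ± 7.24 CPM (SD, n = 2 each). The log2 fold change was 2.35 ± 0.96 (SE), with an unadjusted p of 0.022 and an adjusted p of 0.38 (edgeR), and the adjusted p ranged from 0.087 to 1.0 over the alternatives tried. Of the tested genes 0.646% were called higher and 0.0950% lower on mixing in WT cells. Of *Plaur* and *Plat*, which the choice left free, 0 of 2 were called, with 1 at an unadjusted p under 0.05 in edgeR and 1 in DESeq2, of which 0 passed after adjustment.

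Unlike *F3*, *Plaur* did not have its levels in both mixed WT libraries above those of all cancer libraries. It was at 0 reads in pure cancer library A03 and at 56.9 CPM in A07, from 19 reads, so that A02 of the mixed WT libraries lay between them and A06 above both. Mixed cancer cells had 29.4 CPM in A04 and 25.9 CPM in A08, from 150 and 5 reads. The mixed cancer libraries were close to each other, at 27.7 ± 2.42 CPM (SD, n = 2), and lay between the pure WT and the mixed WT libraries. Only 4.83% of the tested genes had both mixed WT libraries above all 6 others, a pattern that *F3* was chosen on and *Plaur* did not show.

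The other comparisons did not call *Plaur*. Its log2 fold change was -0.16 ± 0.96 (SE) for mixed over pure cancer cells, 1.52 ± 0.96 for pure cancer over pure WT cells and -0.995 ± 0.95 for mixed cancer over mixed WT cells, with edgeR adjusted p of 1.0, 0.41 and 0.68. The difference between its mixing effects in WT and in cancer cells was 2.51 ± 1.35 on the log2 scale (edgeR, adjusted p = 0.75), in a comparison that called 0.0760% of the tested genes and in which *Plaur* and *Plat* had no unadjusted p under 0.05 in edgeR or DESeq2. The value for mixed over pure cancer cells rests on A07, since A03 has no read. It was -0.998 without A03, and its sign turned without A07 and with barcode or transcript counts.

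*Plat*, the gene of tissue plasminogen activator, was read at higher levels in cancer cells than in WT cells. It had 1 read in each of the pure WT libraries (0.916 CPM in A01 and 0.562 CPM in A05) and 0 reads in both mixed WT libraries. The pure cancer libraries had 36.7 CPM in A03 and 20.95 CPM in A07, from 7 reads each, and the mixed cancer libraries had 27.2 CPM in A04 and 62.3 CPM in A08, from 139 and 12 reads. All 4 cancer libraries stood above all 4 WT libraries, as in 8.24% of the tested genes. *Plat* reached the count minimum in cancer libraries alone, so its passing the filter already took a difference between the cell types, and the calls below are not independent of that filter.

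Pooled over libraries, *Plat* had 14 reads in pure cancer and 2 in pure WT cells, 38.3 times the level (counting interval 8.80 to 347), and it was called higher in pure cancer cells (edgeR, adjusted p = 0.0092). Fitted with every gene that had at least 1 read, and thus with no filter, the adjusted p was 0.0040. Without A01 it was 0.12 and without A05 it was 0.19. In this comparison 5.11% of the tested genes were called higher and 4.84% lower. Between the mixed cell types *Plat* had 151 against 0 reads, at least 4.91-fold higher in cancer cells relative to a floor of 3 reads over both mixed WT libraries (lower counting limit 3.95), and it was called higher (edgeR, adjusted p = 0.035, and 0.022 with no filter). Here 2.01% of the tested genes were called higher and 4.41% lower. The adjusted p of *Plat* between the mixed cell types ranged from 0.012 to 0.28 over the alternatives, and the call was lost without A01 (0.055), A04 (0.12), A06 (0.28) or A08 (0.12) and in the fit of the 4 mixed libraries alone (0.058).

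Mixing left no called change of *Plat* in cancer cells, with a log2 fold change of 0.55 ± 0.96 (SE) and an adjusted p of 1.0 (edgeR). Its means there were 28.9 ± 11.2 CPM in pure and 44.7 ± 24.8 CPM in mixed cancer cells (SD, n = 2 each), with ranges that overlapped. No fold is given for *Plat* on mixing in WT cells, since both groups had at most 3 reads. In cancer cells 0 of the 3 tested members were called on mixing, and 0 had an unadjusted p under 0.05 in edgeR and 0 in DESeq2. *F3* is among these members, and the cancer libraries served its choice. Of all tested genes 0% were called, with 69 genes at an unadjusted p under 0.05 in edgeR and 54 in DESeq2, which also called 0.

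*Plau*, the gene of urokinase, was read in 3 cancer libraries and in 0 WT libraries. It had 2 reads in A07 (5.99 CPM), 28 reads in A04 (5.48 CPM) and 3 reads in A08 (15.6 CPM), with 0 reads in A03 and in the 4 WT libraries. The 3 reads of A08 came from 3 molecule barcodes and the 28 reads of A04 from 15. *Plau* did not pass the filter and was not tested. Its 31 reads in mixed cancer cells against 0 in mixed WT cells do not set the groups apart at this depth, since the ratio has a lower counting limit of 0.773. The pooled ratio of mixed to pure cancer cells was 1.53 (counting interval 0.390 to 13.2). A level of *Plau* up to 5.80 CPM in mixed WT cells and up to 1.04 CPM in pure WT cells is not detectable at this depth.

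*Tfpi*, the inhibitor of the tissue factor complex, had 1 read in all, in pure WT library A05. It was at 0 reads in the 4 cancer libraries and in both mixed WT libraries, including A02 and A06 where *F3* was highest. The floors of 1.04 CPM for pure WT, 5.80 CPM for mixed WT, 5.72 CPM for pure cancer and 0.566 CPM for mixed cancer cells bound what these reads can show. No fold is given for *Tfpi* in any comparison.

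The members with more than 1 read differed in the group with the highest mean. *Plat* had its higher levels in cancer cells. *Plau* had reads in cancer cells alone, too few to set the mixed groups apart at this depth. *F3* and *Plaur* had their highest mean levels in mixed WT cells and their lowest in pure WT cells, with cancer cells between. Reads of cancer origin among sorted WT cells were followed with 71 genes that were called higher in pure cancer than in pure WT cells and had at most 3 reads in pure WT cells, a measure added after the data were seen. Their summed level in the mixed WT libraries was 4.75% (A02) and 10.2% (A06) of the mean of the mixed cancer libraries, and their low level in pure WT cells was fixed by the choice of these genes. The mixed WT means of *F3* and *Plaur* lay above the mixed cancer means of the same genes, 20.6 and 27.7 CPM. The part of such reads in the levels of *F3* and *Plaur* was not tested.

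**Figure D3:**
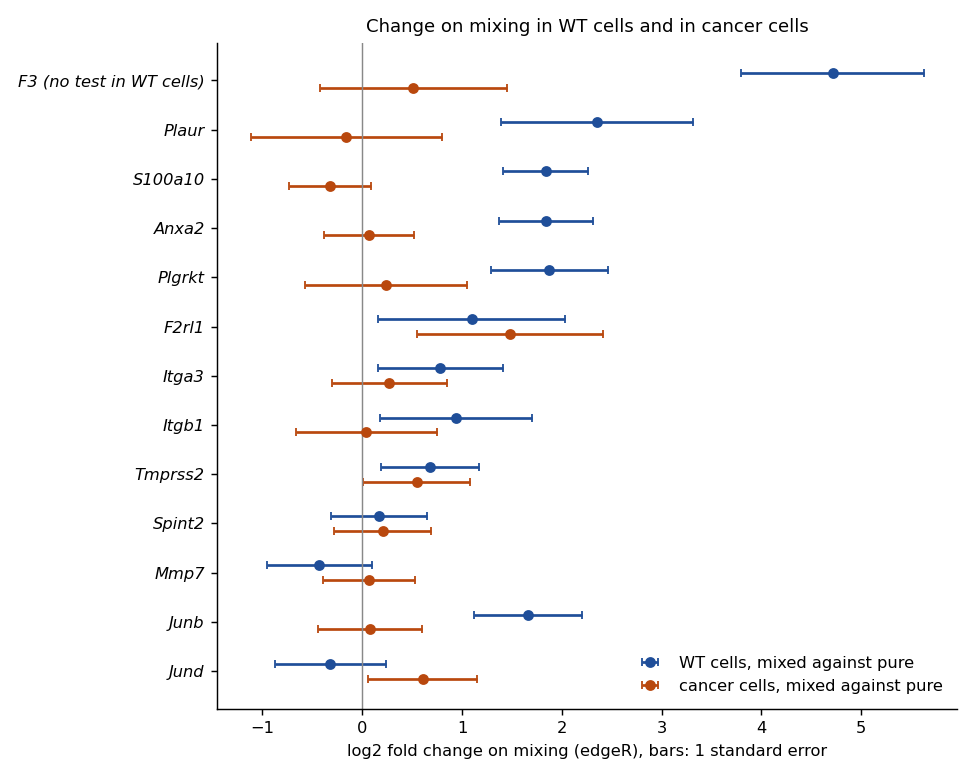
Log2 fold change of mixed over pure cells in WT cells (blue) and in cancer cells (orange) for *F3*, *Plaur* and the named pathway genes with more than 3 reads in both WT groups, with bars of 1 standard error from edgeR. *S100a10* was called in WT cells and 0 genes were called in cancer cells, and the value of *F3* in WT cells, 4.71, is a description without a test.

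Other genes of the pathways were taken from 7 lists of 81 genes, of which 52 were in the table and 33 were tested. On mixing in WT cells 1 was called higher and 0 lower, 3.03% of the list genes against 0.741% of all tested genes, and the median log2 fold change was 0.21 against -0.10 over all tested genes. On mixing in cancer cells 0 were called, at medians of 0.08 and 0.03, and 0 had an unadjusted p under 0.05 in edgeR or DESeq2. Between pure cancer and pure WT cells 11 were called higher and 2 lower, 39.4% against 9.95%, with a median of 0.59 against -0.05. Between mixed cancer and mixed WT cells 5 were called higher and 2 lower, 21.2% against 6.42%, with a median of 0.34 against 0.12. Called list genes such as *Procr*, *F2r*, *Timp1*, *Timp2* and *Timp3* reached the count minimum in cancer libraries alone. The shares and medians between the cell types are thus not independent of the filter. The difference of the mixing effects called 0, of which 5 had an unadjusted p under 0.05 in edgeR and 4 in DESeq2.

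The gene called on mixing in WT cells was *S100a10*, which with annexin A2 (*Anxa2*) forms a cell surface complex that binds plasminogen and tissue plasminogen activator. *S100a10* was at 986 and 644 CPM in the pure WT libraries A01 and A05 and at 3657 and 2189 CPM in the mixed WT libraries A02 and A06, without overlap. Such a lack of overlap in this direction was seen in 15.0% of all tested genes. Its log2 fold change was 1.84 ± 0.42 (SE, edgeR, adjusted p = 0.039), and the adjusted p was 0.18 without A02, 0.38 without A05 and 0.080 without A06. The adjusted p (edgeR) was 0.53 with barcode counts and 0.12 with the transcript counts made from them, so the call was lost in both units. Barcodes of 4 bases set a ceiling that *S100a10* reached in A04 and came near in A01, A05 and A06 (223 to 229 barcodes). The part of this ceiling in the lost calls was not tested. *Anxa2* was at 453 and 160 CPM in A01 and A05 and at 721 and 1441 CPM in A02 and A06, a log2 fold change of 1.84 ± 0.47 that did not pass the test (edgeR, adjusted p = 0.073). The cancer libraries held 2692 to 3064 CPM of *Anxa2*, and it was called higher in pure cancer than in pure WT cells at a log2 fold change of 3.18 ± 0.49 (edgeR, adjusted p = 1e-04). With barcode counts, which for *Anxa2* reached the same ceiling in A04, the adjusted p was 0.18. A share of 29.7% cancer RNA in the sorted mixed WT cells would give their mean of *Anxa2*. The summed level of the 71 genes above was 4.75% (A02) and 10.2% (A06) of the mixed cancer mean. The part of cancer RNA in the level of *Anxa2* was not tested.

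*Plgrkt*, a plasminogen receptor of the cell membrane, was called lower in cancer cells. It was at 66.8 and 133 CPM in the pure WT libraries A01 and A05, 197 and 510 CPM in the mixed WT libraries A02 and A06 and 8.98 to 31.5 CPM in the 4 cancer libraries. It was called lower in pure cancer than in pure WT cells, at a log2 fold change of -2.45 ± 0.73, and in mixed cancer than in mixed WT cells, at -4.09 ± 0.69 (SE, edgeR, adjusted p = 0.033 and 0.00030). The first of these calls was lost without A05 (adjusted p = 0.34) or A07 (0.27). Its value on mixing in WT cells, 1.88 ± 0.59, did not pass the test (edgeR, adjusted p = 0.18).

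Among receptors of the clotting system, *Procr*, the endothelial protein C receptor, had 0 reads in the 4 WT libraries and 26.2 to 95.8 CPM in the 4 cancer libraries. It was at least 67.5-fold higher in pure cancer than in pure WT cells and at least 5.76-fold higher in mixed cancer than in mixed WT cells, against floors of 3 reads per group (lower counting limits 52.2 and 4.64, edgeR adjusted p = 0.00024 and 0.025), and the second call was lost without A06 (0.26). *F2r*, the thrombin receptor PAR1, had 1 read in WT cells and 18.2 to 42.0 CPM in the cancer libraries, and it was called higher in pure cancer cells (edgeR, adjusted p = 0.0032), though not without A01 (0.13) or A05 (0.082). Like *Plat*, both genes reached the count minimum in cancer libraries alone, and with no filter their adjusted p between the pure cell types were 3.0e-07 and 0.00034. *F2rl1*, which encodes the receptor PAR2 that the tissue factor and factor VII complex can cleave, was read in all 8 libraries at 7.32 to 52.4 CPM and did not pass the test in any comparison (edgeR, adjusted p of 0.78 or more). Of the 20 clotting factors and inhibitors listed, 6 were in the table and only *Procr* was tested.

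**Figure D4:**
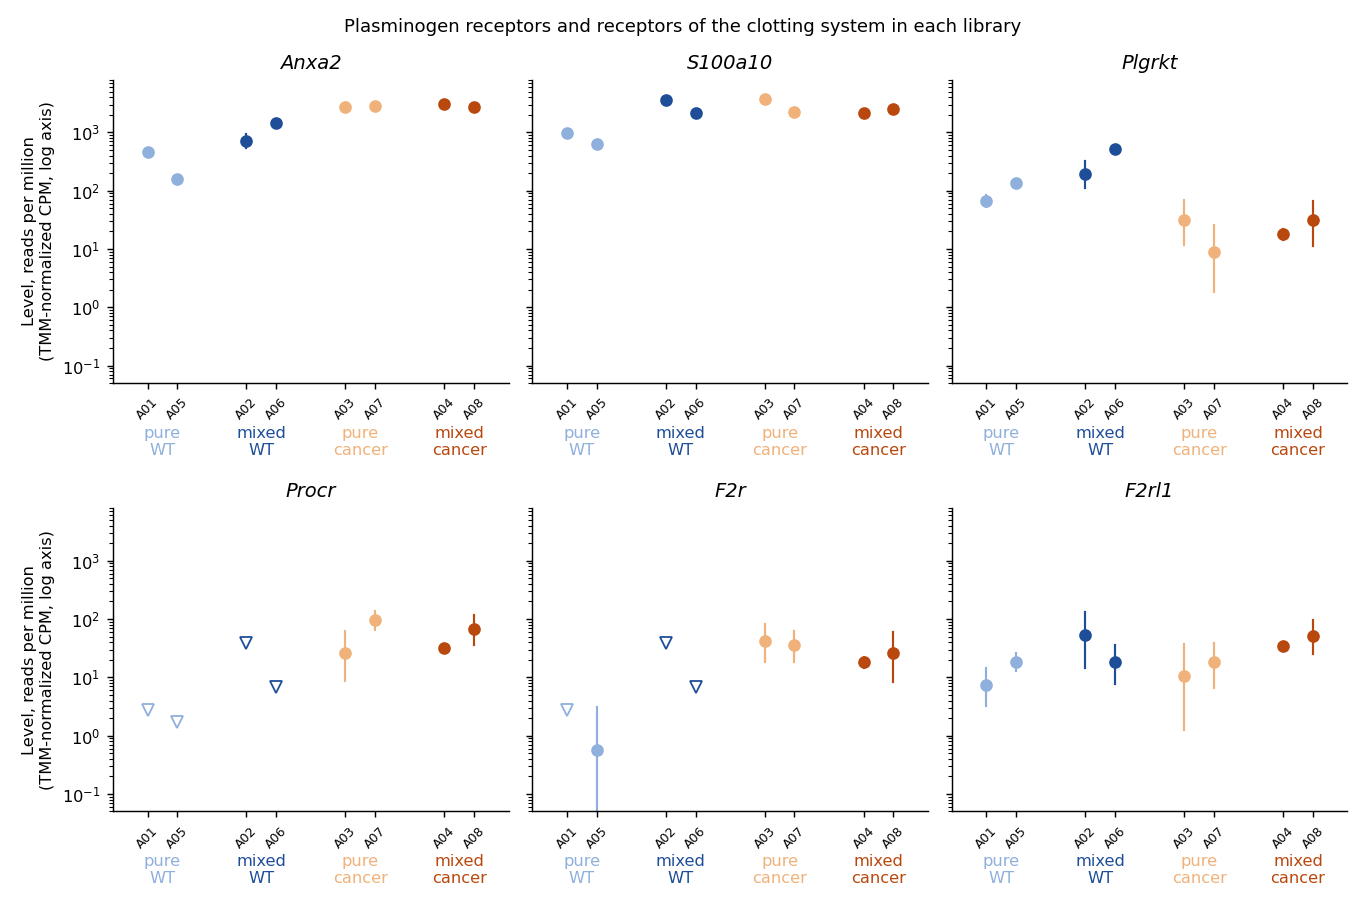
Level of *Anxa2*, *S100a10*, *Plgrkt*, *Procr*, *F2r* and *F2rl1* in each library, in TMM-normalized CPM on a log axis, with wells on the x axis under the group names, drawn like the plot of the members by library. *Procr* and *F2r* have at most 1 read in WT cells, *S100a10* lies higher in A02 and A06 than in A01 and A05, and *Plgrkt* is lowest in cancer cells.

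Of the proteases and inhibitors that act beside plasmin, the matrix protease *Mmp7* was called higher in cancer cells at log2 fold changes of 2.68 ± 0.49 (pure) and 3.17 ± 0.55 (mixed) (SE, edgeR, adjusted p = 0.00060 and 0.00036). The metalloprotease inhibitors *Timp1* and *Timp2* were called higher in cancer cells in both comparisons and *Timp3* in the pure one. *Timp1*, *Timp2* and *Timp3* also passed the filter through the cancer libraries alone, so these calls are not independent of it. With no filter the adjusted p of *Timp1* and *Timp3* between the pure cell types were 0.00027 and 2.5e-05 (edgeR). The call of *Timp2* between the pure cell types held in all 16 alternatives. The membrane protease *Tmprss2* was called lower in cancer cells, at -1.74 ± 0.53 and -1.87 ± 0.52 (SE, edgeR, adjusted p = 0.035 and 0.027). *Itga3*, an integrin that pairs with the urokinase receptor, was called higher in pure cancer than in pure WT cells at 2.19 ± 0.60 (edgeR, adjusted p = 0.018). Of 10 tested AP-1, NF-kB and EGR factors only *Junb* was called, higher in pure cancer than in pure WT cells at 2.24 ± 0.55 (SE, edgeR, adjusted p = 0.0084). This call is 10.0% of these factors, close to the 9.95% of all tested genes called between the pure cell types. On mixing in WT cells *Junb* stood at 1.66 ± 0.54 (SE, edgeR, adjusted p = 0.22). Calls were lost without 1 library for *Tmprss2* (pure comparison: A01, A03 or A05, mixed comparison: A02, A04, A05, A06 or A08), *Timp1* (mixed: A04 or A06), *Timp2* (mixed: A06), *Timp3* (A07), *Itga3* (A01, A05 or A07) and *Junb* (A05 or A07), at adjusted p of 0.055 to 0.34, and for *Tmprss2* also with barcode counts between the pure cell types (0.054) and with transcript counts (0.052) or no filter (0.074) between the mixed ones. The most read uncalled genes of these lists, *Spint2*, *Itgb1* and *Jund*, had log2 fold changes of 0.17, 0.94 and -0.32 on mixing in WT cells.

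The 5 genes whose log2 CPM followed *F3* most closely over the 8 libraries, of 2745 tested genes with a mean of at least 50 reads, were *Flii* (Pearson's r = 0.94), *Ctse* (0.92), *Hk1* (0.91), *Cldn4* (0.88) and *Nfkbia* (0.87). These are descriptions over 8 points that share library and depth. *Ctse*, which encodes the aspartic protease cathepsin E, had 5.35 ± 2.79 CPM in pure WT and 160 ± 23.0 CPM in mixed WT cells, beside 61.8 ± 65.1 CPM in pure and 88.4 ± 21.7 CPM in mixed cancer cells (SD, n = 2 each). *Cldn4*, a tight junction claudin, had 31.5 ± 7.06, 191 ± 85.1, 50.2 ± 56.1 and 83.0 ± 21.9 CPM in the same order. Of the 5, 3 stayed among the top 5 with Spearman's correlation, 3 with a minimum of 20 reads and 2 with barcode counts.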

How the data were processed

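Bulk RNA of 8 sorted samples was made into CEL-Seq libraries, which tag the 3′ ends of transcripts. The authors aligned reads with BWA to mm10 and counted them with featureCounts. The deposited read counts per gene are not normalized and include amplification copies. The deposited barcode counts give the different molecule barcodes per gene, and the deposited transcript table holds estimated counts that the authors corrected for repeated barcodes. The authors' DESeq2 1.22.2 table of mixed against pure WT cells (mean, log2 fold change, error, p-values) was not used. A spike-in and eGFP, 2 entries with 1 read in all, were left out.

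Samples were grouped by their labels. Labels give wells and no donor, culture or pairing, so replicates may be technical and p-values then measure only their spread. Replicate libraries differed beyond counting noise. Read counts were fitted with edgeR 4.0.16 in R 4.3.3 (filterByExpr at a minimum count of 10, TMM, quasi-likelihood test, 8 libraries in 1 fit, Benjamini-Hochberg over 5264 genes, called at an adjusted p under 0.05). DESeq2 1.42.0, other scalings, filters and units and leaving out each library were the alternatives, and the steps were tested on simulated counts. Positions are from GENCODE vM21. A ratio from 1 to 3 reads is given with its 95% counting interval, and a group at 0 reads against a floor of 3 reads. Named genes are the members, list genes called in a comparison, the 2 most read tested genes of each list and the 5 genes most like *F3*. An allele of the cancer cells and a called list gene are not reported here, though the counts over the lists include that gene. The members and lists were chosen with earlier results of these data known.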

Additional observations from a re-analysis of the deposited data

How the results depend on the processing

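With 2 libraries per group and 5 to 54 reads behind *F3* in mixed WT cells, single libraries set many values. Counts of genes called (edgeR) moved by over 1.5 times under several alternatives, and the cause was not tested. Barcode and transcript counts have a ceiling for genes with many molecules. For mixed against pure WT cells, 39 genes were called with all 8 libraries, 93 with barcode counts, 82 with transcript counts, 68 without a filter, 108 in the fit of the 4 libraries compared alone, 70 in DESeq2 and 2 to 118 with 1 library left out, where A02 (90), A03 (107), A05 (8), A06 (2), A07 (118) and A08 (89) moved it by over 1.5 times. For pure cancer against pure WT cells, 524 became 232 with a minimum count of 50, fewer genes being tested, and 261 to 745 with 1 library left out, with A01 (314), A05 (261) and A07 (342) moving it by over 1.5 times. For mixed cancer against mixed WT cells, 338 became 151 with a minimum count of 50 and 167 (A04) to 506 (A07) with 1 library left out, and 220 without A06. The difference of the mixing effects called 4 genes, and 23 with barcode counts, 10 with transcript counts, 10 without a filter, 12 in DESeq2 and 1 (A04 or A06) to 32 (A03) with 1 library left out. It called 13 without A01, 13 without A02, 2 without A05, 17 without A07 and 8 without A08.

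Of the members, *Plat* was the gene called between cell types, and the count of 1 fell to 0 in both comparisons with barcode counts and with a minimum count of 50, where the filter dropped *Plat*, and between the mixed cell types also in the fit of 4 libraries. It was 0 or 1 with 1 library left out. The log2 fold change of *F3* on mixing in cancer cells was -0.023 to 2.02 with 1 library left out. That of *Plaur* was 0.40 with barcode counts, 0.16 with transcript counts and -0.998 (without A03) to 8.15 (without A07) with 1 library left out, against pure WT cells -6.81 to 2.60 in pure cancer cells, and -5.81 to 3.48 for the difference of the mixing effects. The extreme values without A07 are fitted against A03, which has 0 reads of *Plaur*, and depend on the prior count. No paired fit was made, because the labels give wells and no number shared between groups, and a pairing by the order of wells would be a guess.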
